A study of Mus musculus with 15 samples.

Results

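The expression of 9 genes of the SIRP and CD300 families of paired receptors was followed over 5 sorted murine mononuclear phagocyte subtypes. They were chosen by name, with their levels in these libraries already known, and are the SIRP genes Sirpa, Sirpb1a, Sirpb1b and Sirpb1c and the CD300 genes Cd300a, Cd300e, Cd300lb, Cd300ld and Cd300lf. All 9 were found among the 38924 genes of the count table, and all 9 exceeded 1 CPM (a library's counts of a gene scaled to a common library size) in at least 3 libraries. Their own differences between subtypes are therefore a description. The count of members past the threshold of the fit over all genes is printed beside the share of all genes past it, with no p value and nothing read from it, and p values are given for other genes. The DC1 lineage was represented by splenic CD8+ DCs and by CD103+ DCs of the lymph nodes (LNs) that drain the lung, the DC2 lineage by splenic CD4+ DCs and LN CD11b+ DCs, and Ly6C+ monocytes of the spleen were the fifth subtype, with 3 libraries each. Every library was made from cells pooled from 5 naïve female C57BL/6 mice, labelled as 6 to 8 weeks old, with no transgene, deletion or treatment in any group. Spleens and LNs came from separate cohorts, and a gate on high MHC class II was applied to DCs of the LN alone, so organ, cohort and gate cannot be told apart. Monocytes were enriched with CD11b beads and DCs with CD11c beads, and only the monocyte libraries were listed with more than 1 run. In comparisons with monocytes, cell type, beads and runs cannot be told apart.

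Paired receptors are families of closely related surface proteins, often encoded side by side, in which some members inhibit and others activate the same cell. The inhibitory members carry tyrosine motifs in a long cytoplasmic tail that recruit the phosphatases SHP-1 and SHP-2. The activating members have short tails and signal through adaptor proteins such as DAP12 (gene Tyrobp) or the Fc receptor gamma chain (gene Fcer1g), which recruit the kinase SYK. SIRP alpha, the product of Sirpa, binds CD47 on other cells and restrains phagocytosis, and it is widely used as a surface marker of the DC2 lineage. CD300 proteins bind lipids such as those exposed on dying cells.

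The members lay in 3 places in the mm10 genome. Sirpa (ENSMUSG00000037902) spanned chromosome 2 from 129592835 to 129632228. The activating SIRP genes formed a cluster on chromosome 3, with Sirpb1a (ENSMUSG00000095788) from 15371827 to 15426427, Sirpb1b (ENSMUSG00000095028) from 15495754 to 15575065 and Sirpb1c (ENSMUSG00000074677) from 15795145 to 15848528. The CD300 genes formed another on chromosome 11, with Cd300a (ENSMUSG00000034652) from 114890041 to 114904654, Cd300lb (ENSMUSG00000063193) from 114922781 to 114934386, Cd300ld (ENSMUSG00000034641) from 114982274 to 114989922, Cd300e (ENSMUSG00000048498) from 115051917 to 115062177 and Cd300lf (ENSMUSG00000047798) from 115116214 to 115133992. No exon of a member overlapped an exon of another gene in the annotation that was counted on.

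The Sirpb1 genes are near-identical over long stretches, and the bases before their starts show this. The 250 bases upstream of each RefSeq start (GRCm38.p6, minus strand, printed 5′ to 3′) are shown because these neighbours had similar profiles. The counted span of Sirpb1c reaches 15848528, past its RefSeq start, so part of its window lies inside the gene as counted. Capitals mark the 9 bases that follow a stretch common to the 3 windows.
Sirpb1a, chr3:15426428-15426677: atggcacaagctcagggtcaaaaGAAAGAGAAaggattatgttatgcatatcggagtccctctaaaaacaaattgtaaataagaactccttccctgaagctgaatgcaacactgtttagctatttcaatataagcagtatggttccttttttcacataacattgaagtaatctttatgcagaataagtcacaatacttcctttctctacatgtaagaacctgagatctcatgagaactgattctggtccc
Sirpb1b, chr3:15575066-15575315: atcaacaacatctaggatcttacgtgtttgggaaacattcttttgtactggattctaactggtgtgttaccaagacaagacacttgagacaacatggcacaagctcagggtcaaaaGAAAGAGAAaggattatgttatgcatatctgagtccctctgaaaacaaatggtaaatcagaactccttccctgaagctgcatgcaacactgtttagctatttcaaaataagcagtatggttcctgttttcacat
Sirpb1c, chr3:15848488-15848737: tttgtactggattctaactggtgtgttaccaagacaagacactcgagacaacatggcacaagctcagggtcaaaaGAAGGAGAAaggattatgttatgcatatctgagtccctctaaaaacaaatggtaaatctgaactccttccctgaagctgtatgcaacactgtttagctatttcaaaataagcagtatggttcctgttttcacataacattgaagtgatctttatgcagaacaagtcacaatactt

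In the windows of Sirpb1a and Sirpb1b the capitals read GAAAGAGAA, which matches the letters GAAANNGAA searched for as an IRF motif, at positions -227 and -134 from the start. In Sirpb1c the same place holds GAAGGAGAA, which differs from Sirpb1a by A4G, counted from 1 at the first capital, and is no match. The motif was searched on both strands of the 300 bases around each start, and 8.56% of the 32851 mouse windows in the table held it. The longest identical run between 2 of the Sirpb1 windows of 300 bases spanned 104 bases, between Sirpb1b and Sirpb1c. Among the CD300 members the IRF letters were found once, at -144 of Cd300lf. The letters GAGGAAGT, searched for as a PU.1 motif and present in 3.2% of all windows, were found in Cd300ld at -143 and in Cd300lf at the start itself, and GGAANNGAA, an ETS-IRF composite held by 8.24% of windows, in no member. RefSeq windows were matched for 8 of the 9 members, without Sirpa.

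The likeness extends into the transcripts. Of all runs of 30 bases in the transcripts of Sirpb1a, 55.6% also occur in a transcript of another gene, against 73.1% for Sirpb1b and 68.2% for Sirpb1c, and at 100 bases the shares were 23%, 39.3% and 32.1%. For Sirpa, Cd300e and Cd300lb the share at 30 bases was 0.1% or 0, and for Cd300a, Cd300ld and Cd300lf it was 8.8%, 6.8% and 4.9%. Since only uniquely mapped reads were counted, reads from the shared stretches are missing from the Sirpb1 genes, and the level of each Sirpb1 gene is uncertain to that extent.

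The sorted cells carried the defining markers of their labels in most cases. Summed CPM of 6 DC1 markers such as Irf8, Xcr1 and Clec9a was 3533 to 5474 in the DC1 of the spleen and 140 to 168 in its DC2. For the LN this sum was 779 to 1096 in DC1 but 287 to 446 in DC2, and monocytes reached 480 to 599. Irf8 was the largest part, with means of 2486 CPM in splenic DC1, 613 in LN DC1 and 239 in LN DC2. Libraries of the LN lineages overlapped for Batf3 (79.5 to 91.8 CPM in DC1, 65.9 to 85.3 in DC2) and Tlr3 (3.86 to 14.9 and 1.91 to 6.78). The 6 DC2 markers such as Itgam and Irf4 summed to 866 to 988 CPM in splenic CD4+ DCs and 256 to 360 in LN CD11b+ DCs, against 56 to 159 and 40.1 to 63.8 in the DC1 of the same organs, with Clec4a4 at 0 in all 3 LN CD103+ libraries. They also reached 1186 to 1307 in monocytes, which express Itgam. Monocyte markers such as Ly6c2 summed to 7196 to 7934 CPM in monocytes and at most 679 elsewhere. The markers of migratory DCs Ccr7, Fscn1, Ccl22 and Socs2 summed to 6234 to 13940 CPM in LN DCs and to at most 399 in the spleen. Markers of T cells reached 66 to 128 CPM in LN DCs and at most 7.48 elsewhere, those of macrophages were highest in splenic CD4+ DCs, at 1223 to 1730 CPM, and those of neutrophils in monocytes, at 298 to 447 CPM. B cell markers reached 243.5 CPM in 1 LN CD103+ library and at most 90.8 in any library of another subtype, NK cell markers stayed at or below 14.4 CPM, and plasmacytoid DC markers lay between 131 and 286 CPM. Genes of Ly6C-low monocytes summed to 3833 to 4223 CPM in monocytes and 553 to 1514 in DCs. The part of these other cells' markers in the values given here was not tested. Libraries held 4531243 to 10233914 counts.

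Sirpa, the inhibitory SIRP gene, was abundant in both DC2 subtypes and in monocytes. It measured 973, 1888 and 1657 CPM in the libraries of splenic CD4+ DCs, and 1356, 1199 and 1379 CPM in those of monocytes. LN CD11b+ DCs had 629, 613 and 597 CPM. In DC1 it fell to 119, 64.5 and 45.4 CPM in splenic CD8+ DCs and to 12.6, 13.2 and 11.4 CPM in LN CD103+ DCs. Splenic CD4+ DCs and monocytes overlapped, and every other pair of subtypes was separate. The range from LN CD103+ to splenic CD4+ DCs thus ran from 12.4 ± 0.906 to 1506 ± 476 CPM (SD, n = 3).

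The Sirpb1 genes, which encode the activating counterparts, followed the same order within DCs but not in monocytes. Sirpb1a was highest in splenic CD4+ DCs, at 463, 521 and 375 CPM, and measured 160, 195 and 160 CPM in monocytes. LN CD11b+ DCs held 80.1, 64.2 and 32.9 CPM of it and splenic CD8+ DCs 18.1, 8.23 and 2.06 CPM. All 5 subtypes were separate for Sirpb1a. Sirpb1c had the opposite rank at the top, with 449, 452 and 398 CPM in monocytes and 187, 213 and 166 CPM in splenic CD4+ DCs. LN CD11b+ DCs had 54.1, 50.4 and 29.6 CPM of it and splenic CD8+ DCs 5.14, 3.91 and 0.344 CPM. Sirpb1b also had its highest level in monocytes, at 254 ± 11.7 CPM in monocytes and 186 ± 42.6 CPM in splenic CD4+ DCs, 4.86 ± 4.23 in splenic CD8+ DCs and 37 ± 7.51 in the DC2 of the LN, again with no overlap between subtypes.

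LN CD103+ DCs were at or near 0 for all 3 Sirpb1 genes. They held 6 counts of Sirpb1a, 2 of Sirpb1b and 1 of Sirpb1c over their 3 libraries, or 0.283 ± 0.256, 0.078 ± 0.135 and 0.0552 ± 0.0957 CPM. Sirpa, with 272 counts, was the only SIRP member detected in each of the 3 libraries.

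Among the inhibitory CD300 genes, Cd300a was highest in monocytes and Cd300lf in splenic CD4+ DCs. Cd300a, whose product binds phosphatidylserine and phosphatidylethanolamine, measured 756, 884 and 858 CPM in monocytes and 262, 327 and 410 CPM in splenic CD4+ DCs. It was also present in splenic CD8+ DCs, at 101, 101 and 83.6 CPM, and in LN CD11b+ DCs, at 74, 65.1 and 68.5 CPM. LN CD103+ DCs had 3.49, 1.76 and 1.99 CPM, and all subtypes were separate. Cd300lf, an inhibitory receptor that binds phosphatidylserine, measured 338, 395 and 250 CPM in splenic CD4+ DCs and 70.4, 107 and 93.2 CPM in monocytes. Its 63.1, 28.9 and 14.4 CPM in splenic CD8+ DCs overlapped the 29.5, 25.7 and 16.8 CPM in LN CD11b+ DCs, and LN CD103+ DCs had 5.16, 2.11 and 0.331 CPM.

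The activating CD300 genes each had a profile of their own. Cd300lb, which signals through DAP12, was highest in monocytes, at 262, 239 and 256 CPM against 7.61, 5.8 and 15 CPM in splenic CD4+ DCs. LN CD11b+ DCs, at 10.4, 6.6 and 5.08 CPM, overlapped splenic CD4+ DCs, splenic CD8+ DCs had 1.67, 0.944 and 1.03 CPM, and 1 count fell in LN CD103+ DCs. Cd300ld, which pairs with the Fc receptor gamma chain, was shared between monocytes, at 123, 119 and 136 CPM, and splenic CD4+ DCs, at 63.4, 146 and 112 CPM. It measured 17.6, 22.3 and 16.6 CPM in LN CD11b+ DCs, and the 1.91, 7.83 and 3.32 CPM in splenic CD8+ DCs overlapped the 1.95, 0.234 and 0.663 CPM in LN CD103+ DCs.

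Cd300e, an activating receptor gene, stood apart from the other members. It was low everywhere and measured 16.7, 13 and 23.4 CPM in the DC1 of the spleen, 16.8, 10.6 and 21.5 CPM in its DC2 and 10.8, 18.5 and 12.5 CPM in monocytes. The 3 splenic subtypes overlapped. LN CD11b+ DCs had 1.83, 6.89 and 1.11 CPM, and no count fell in any of the 3 LN CD103+ libraries.

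**Figure D1:**
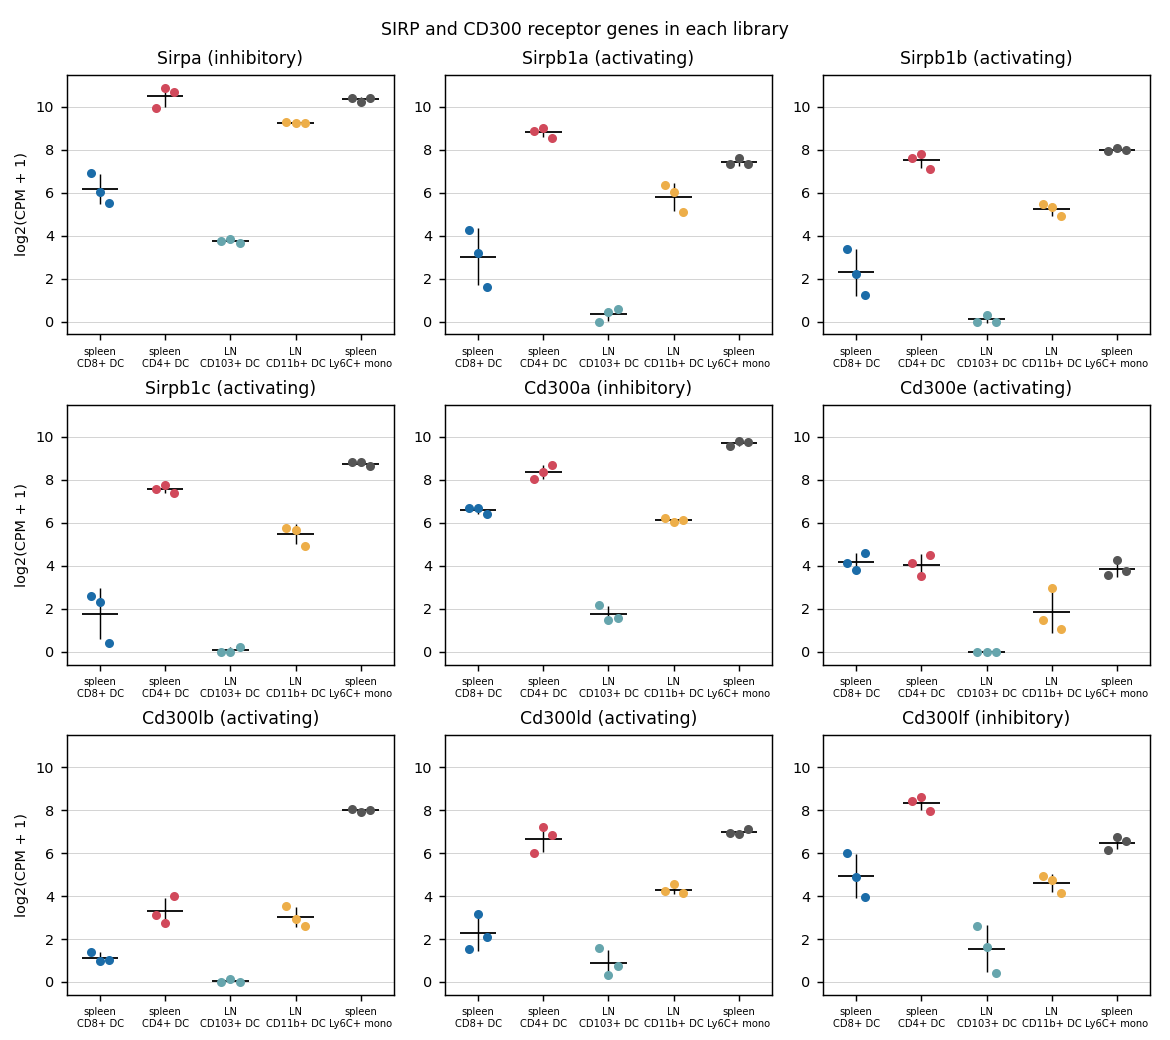
Level of each member in each library, as log2(CPM + 1), for the 5 subtypes; points are libraries, horizontal lines means and vertical lines ± SD (n = 3). LN CD103+ DCs have the lowest mean in all 9 panels, Sirpa runs from 12.4 CPM there to 1506 CPM in splenic CD4+ DCs, and Cd300e is flat over the 3 splenic subtypes.

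Levels of different genes were compared as TPM, in which counts are divided by exon length before scaling to a common total. Summed TPM of the 4 SIRP members was 2130 ± 131 in splenic CD4+ DCs and 1880 ± 51.6 in monocytes, 510 ± 67.5 in LN CD11b+ DCs, 66.9 ± 45.3 in splenic DC1 and 6.38 ± 0.568 in LN DC1 (SD, n = 3). The inhibitory Sirpa made up 25.7% to 42.6% of the sum in splenic CD4+ DCs and 33% to 39.1% in monocytes, so that activating transcripts outnumbered it there. In LN CD11b+ DCs its share was 53.1% to 68.3%, in splenic CD8+ DCs 51.4% to 77.3% and in LN CD103+ DCs 83.5% to 100%. These are shares of the 4 members alone. The neighbouring genes Gm9733 and Gm5150 are not in the sum and averaged 1502 and 346 TPM in monocytes. Their means were 777 and 151 TPM in splenic CD4+ DCs and 70.3 and 58 TPM in LN CD11b+ DCs. Reads of shared stretches are missing from the Sirpb1 genes but hardly from Sirpa, so the share of Sirpa may be too high.

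Splenic CD4+ DCs and monocytes had similar sums of the SIRP members, made up of the paralogs in different proportions. The ratio of Sirpb1a to Sirpb1c TPM was 5.71, 5.64 and 5.21 in the libraries of splenic CD4+ DCs and 0.823, 0.999 and 0.926 in those of monocytes. LN CD11b+ DCs lay between, at 3.42, 2.94 and 2.57. These 3 groups of ratios did not overlap. In splenic CD8+ DCs the ratio was 8.11, 4.86 and 13.9, which overlapped that in splenic CD4+ DCs. LN CD103+ DCs, with 1 count of Sirpb1c, are given no ratio. Because the ratio is formed within a library from genes that lack the reads of their shared stretches, its level is uncertain.

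For the CD300 members the sum was 861 ± 22.4 TPM in monocytes, 459 ± 63.3 in splenic CD4+ DCs, 90.4 ± 14.2 in splenic CD8+ DCs, 72.8 ± 5.89 in LN CD11b+ DCs and 3.1 ± 2.17 in LN CD103+ DCs. The inhibitory genes Cd300a and Cd300lf together held most of it in every library, with 55.1% to 60.5% in monocytes, 57.2% to 67.5% in LN CD11b+ DCs, 61.5% to 78.3% in splenic CD8+ DCs, 70.1% to 77.8% in splenic CD4+ DCs and 65.9% to 85.8% in LN CD103+ DCs. Other CD300 genes, such as Cd300c2, are not in this sum. Cd300c2 averaged 460 TPM in splenic CD4+ DCs, 408 in monocytes and 118 in LN CD11b+ DCs. In splenic CD8+ and LN CD103+ DCs it averaged 118 and 6.02 TPM. The shares given here are therefore of the members alone and not of all CD300 genes. In monocytes Cd300a took 50.7% to 54.4% and Cd300lb 23.8% to 28.6% of the sum of the CD300 members. In splenic CD4+ DCs Cd300lf took 25.2% to 42.2% and Cd300lb at most 2.66%. Cd300e took 17% to 33.6% of the sum in splenic CD8+ DCs and at most 10.1% in each other subtype.

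**Figure D2:**
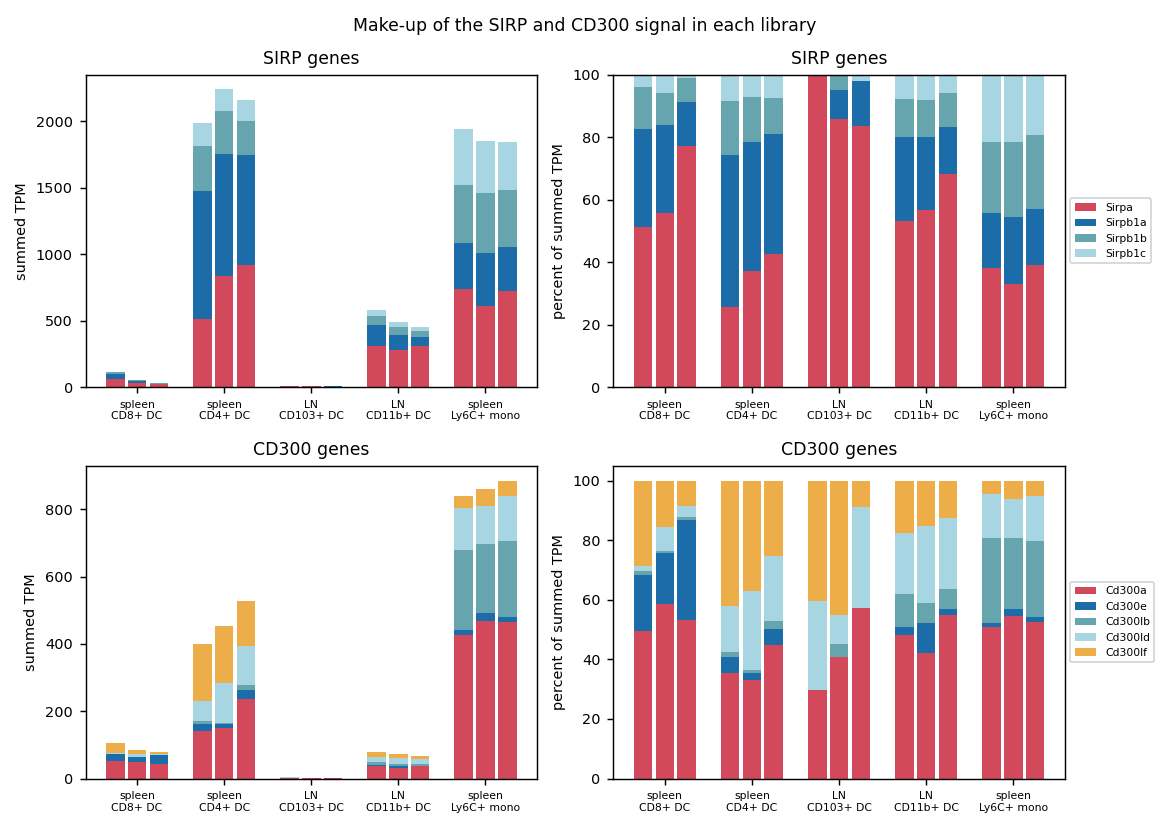
Left, summed TPM of the SIRP members (top) and CD300 members (bottom) in each library. Right, percent of that sum held by each member. Each bar is 1 library, in groups of 3 by subtype. Sirpb1a takes 38.4% to 48.7% of the SIRP sum in splenic CD4+ DCs and 17.8% to 21.4% in monocytes, and the bars on the right for LN CD103+ DCs rest on sums of only 6.38 TPM for SIRP and 3.1 TPM for CD300 on average.

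In the spleen, 8 of the 9 members were lower in CD8+ than in CD4+ DCs, with a median log2 fold change of -4.31 (0 over all genes tested). These 8 passed the edgeR threshold of an adjusted p of 0.05 as lower, where 14.4% of all genes were lower and 13.1% higher. The differences were -4.31 ± 0.32 (log2 fold change ± SE) for Sirpa, -5.58 ± 0.52 for Sirpb1a, -5.25 ± 0.44 for Sirpb1b, -5.92 ± 0.47 for Sirpb1c and -4.63 ± 0.45 for Cd300ld. The inhibitory CD300 genes differed by -1.81 ± 0.21 for Cd300a and -3.21 ± 0.48 for Cd300lf. Cd300lb lay at -2.93 ± 0.39, and Cd300e did not pass, at 0.12 ± 0.45. In bulk libraries of sorted cells, fewer cells of a type and less RNA per cell cannot be told apart.

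The 3 splenic CD8+ libraries were uneven for several members. Replicate 1 was highest and replicate 3 lowest for Sirpa, the 3 Sirpb1 genes and Cd300lf, and the DC2 markers were ranked alike, at 159, 99.3 and 56 CPM in replicates 1, 2 and 3. The part of these markers in the differences was not tested. Without replicate 1 the log2 fold changes were -6.48 for Sirpb1a, -6.23 for Sirpb1b, -6.52 for Sirpb1c and -3.92 for Cd300lf, and without replicate 2 that of Cd300ld was -5.38.

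In the LN, all 9 members were lower in CD103+ than in CD11b+ DCs, with a median of -6.91 (-5.62 with Cd300e at its lower limit, and -0.01 over all genes). All passed the threshold as lower, where 7.73% of all genes were lower and 5.22% higher. Sirpa differed by -5.62 ± 0.34, Cd300a by -4.84 ± 0.27, Cd300ld by -4.32 ± 0.54, Cd300lf by -3.21 ± 0.55 and Sirpb1a by -7.66 ± 0.73. For genes with 1 to 3 counts in CD103+ DCs the ratio of CD11b+ to CD103+ DCs was 403 for Sirpb1b (95% exact Poisson interval 111 to 3324), 972 for Sirpb1c (175 to 38410) and 160 for Cd300lb (28.8 to 6331). Cd300e was at least 23.7-fold higher in CD11b+ DCs, from 3 counts over the group in place of 0, with a range of 10.6-fold (without LN CD11b+ replicate 2) to 31.6-fold when any 1 library was left out. These intervals and limits cover counting error only. Without the library that held all their counts, the limits were at least 163-fold for Sirpb1b (LN CD103+ replicate 2), 234-fold for Sirpb1c (replicate 3) and 32.4-fold for Cd300lb (replicate 2). Without LN CD103+ replicate 1, Cd300ld and Cd300lf moved to -5.44 and -4.17.

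**Figure D3:**
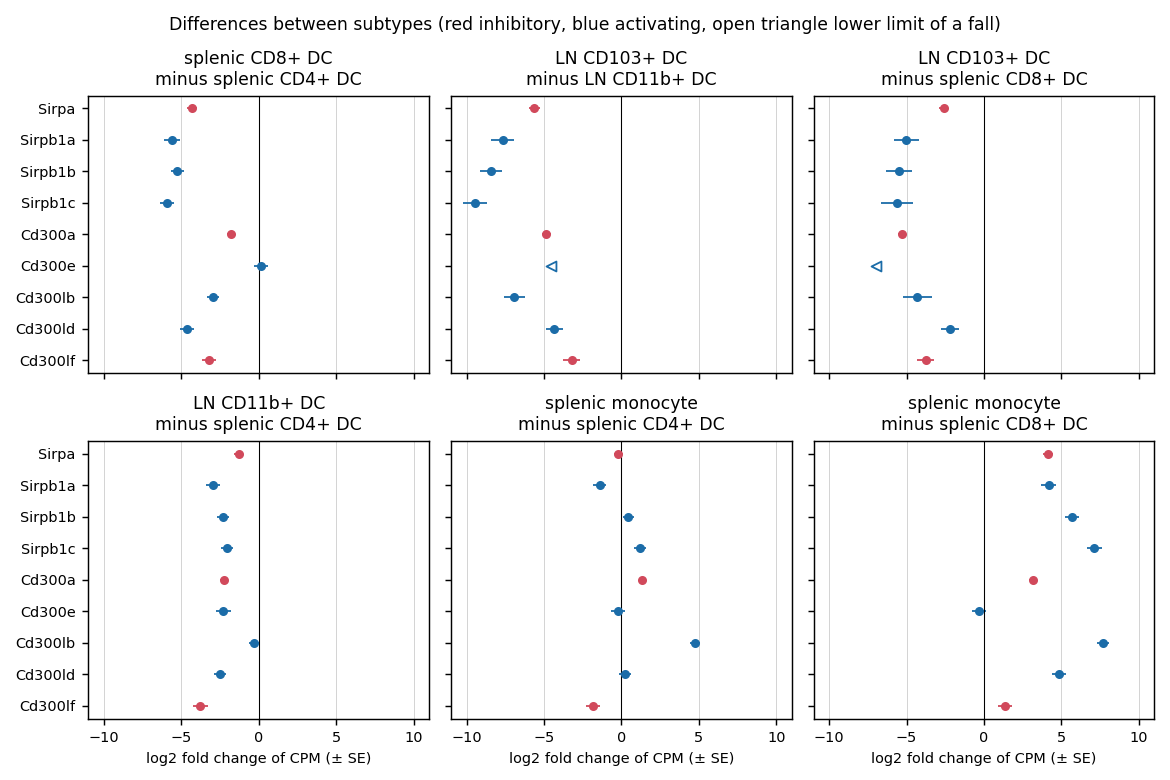
Log2 fold change of CPM for each member in the 6 comparisons; points are fitted values with SE bars, red for inhibitory and blue for activating genes, and open triangles mark the lower limit of a fall to a group with no count. In the 4 comparisons of DC subtypes the members sit left of 0 apart from Cd300e in the spleen at 0.12, and in monocytes against CD4+ DCs they run from -1.86 for Cd300lf to 4.74 for Cd300lb.

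Between organs, the members were lower in LN DCs than in their splenic counterparts. Between the DC1 subtypes all 9 passed the threshold as lower in LN CD103+ DCs, where 21.8% of all genes were lower and 23.8% higher. The libraries overlapped for Cd300ld. The median was -5.01, with Cd300e fitted or at its limit. The inhibitory genes differed by -2.61 ± 0.31 for Sirpa, -5.3 ± 0.27 for Cd300a and -3.77 ± 0.55 for Cd300lf, and among the activating genes Sirpb1a differed by -5.01 ± 0.79 and Cd300ld by -2.19 ± 0.58. The ratio of splenic to LN level was 52.8 for Sirpb1b (95% interval 14.6 to 436), 68.1 for Sirpb1c (12.2 to 2690) and 26.5 for Cd300lb (4.75 to 1045), and Cd300e was at least 128-fold higher in the spleen, or 77.8-fold without LN CD103+ replicate 2. Without splenic CD8+ replicate 1, Sirpb1a moved to -4.11, Sirpb1b to -4.51, Sirpb1c to -5.02 and Cd300lf to -3.05. Without LN CD103+ replicate 1, Cd300ld moved to -3.31 and Cd300lf to -4.72, and without splenic CD8+ replicate 2 Cd300ld moved to -1.51. The limits without the library that held all LN counts were at least 21.4-fold for Sirpb1b, 16.4-fold for Sirpb1c and 5.35-fold for Cd300lb.

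Between the DC2 subtypes 8 of 9 members passed as lower in LN CD11b+ DCs, where 13.8% of all genes were lower and 19.3% higher, with a median of -2.28 (0.05 over all genes). Sirpa differed least among the 8, by -1.3 ± 0.28, and Cd300lf most, by -3.76 ± 0.49. Sirpb1a differed by -2.93 ± 0.46, Sirpb1b by -2.32 ± 0.38, Sirpb1c by -2.07 ± 0.38, Cd300a by -2.27 ± 0.21, Cd300ld by -2.5 ± 0.4 and Cd300e by -2.28 ± 0.51, or -3.39 without LN CD11b+ replicate 2. Cd300lb did not pass, at -0.32 ± 0.32, and its libraries overlapped. The markers of migratory DCs moved with organ in both lineages, and their part in these differences was not tested. The organ difference in DC1 minus that in DC2 was -1.32 ± 0.41 for Sirpa, -3.03 ± 0.33 for Cd300a and -0.01 for Cd300lf. Among the activating genes it was -2.08 ± 1.02 for Sirpb1a, -3.17 ± 1.09 for Sirpb1b, -3.55 ± 1.3 for Sirpb1c, -3.98 ± 1.01 for Cd300lb and 0.31 ± 0.78 for Cd300ld, of which those of Sirpb1b, Sirpb1c and Cd300lb rest on 1 or 2 counts in LN CD103+ DCs. Past the threshold for this interaction were 4 of the 9 members, Sirpa, Cd300a, Cd300e and Cd300lb, where 11.2% of all genes were, and Cd300e, with no count in LN CD103+ DCs, is given no value.

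Between monocytes and splenic CD4+ DCs the members differed in both directions. Higher in monocytes past the threshold were 3 members, where 23.8% of all genes were, and lower 2, where 24.2% were, and the median was 0.24. Cd300lb was higher by 4.74 ± 0.33, Cd300a by 1.32 ± 0.21 and Sirpb1c by 1.2 ± 0.36, which did not pass under DESeq2 (1.16). Cd300lf differed by -1.86 ± 0.45 and Sirpb1a by -1.4 ± 0.43. Sirpa, Cd300ld and Cd300e overlapped between the subtypes, at -0.2 ± 0.28, 0.24 ± 0.37 and -0.22 ± 0.46, and Sirpb1b was separate without passing, at 0.45 ± 0.36. When the counts of the 3 Sirpb1 genes were summed, the difference was 0.05 and did not pass, while Sirpb1a and Sirpb1c on their own differed in opposite directions.

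Against splenic CD8+ DCs, 8 members passed as higher in monocytes, where 20.4% of all genes passed as higher and 21.7% as lower, with a median of 4.18. The largest differences were 7.67 ± 0.4 for Cd300lb and 7.12 ± 0.49 for Sirpb1c, followed by 5.7 ± 0.45 for Sirpb1b, 4.87 ± 0.45 for Cd300ld, 4.18 ± 0.49 for Sirpb1a, 4.11 ± 0.32 for Sirpa and 3.13 ± 0.22 for Cd300a. Cd300lf lay at 1.35 ± 0.45 and no longer passed under DESeq2 (1.35) or without splenic CD8+ replicate 2 or 3 (1.21 and 0.97) or monocyte replicate 2 or 3 (1.21 and 1.33). Cd300e did not pass, at -0.34 ± 0.46. Without splenic CD8+ replicate 1 the differences were 5.08 for Sirpb1a, 6.68 for Sirpb1b, 7.71 for Sirpb1c and 2.06 for Cd300lf, and without replicate 2 that of Cd300ld was 5.56.

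Over the 15 libraries, log2 CPM of the 4 SIRP members correlated with each other at Pearson r of 0.966 to 0.99, and that of Sirpa with the CD300 members at 0.667 (Cd300e) to 0.948 (Cd300ld). These libraries share 5 subtypes, so such values largely describe subtype means. Among 8925 other genes with a mean of at least 10 CPM, the profiles most like those of the SIRP members were Clec4a2 (0.989) and Clec4a1 (0.987) for Sirpa, Adgre1 (0.99) and Clec4a2 (0.979) for Sirpb1a, Clec4a1 (0.993) and Rin2 (0.988) for Sirpb1b and Clec4a1 (0.995) and Itgam (0.98) for Sirpb1c. Those most like the CD300 members were Sema4d (0.99) and Il6ra (0.987) for Cd300a, Entpd1 (0.95) and Fuca2 (0.948) for Cd300e, Pilra (0.989) and Ifitm3 (0.986) for Cd300lb, Abca9 (0.983) and Fam111a (0.972) for Cd300ld and Stap1 (0.968) and Ly9 (0.961) for Cd300lf. Clec4a2 and Pilra encode inhibitory receptors of other paired families.

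The genes that work with these receptors were listed by function, and 38 of the 47 found were tested. In the spleen 20 passed the threshold as lower and 6 as higher in CD8+ than in CD4+ DCs, where 14.4% and 13.1% of all genes did. In the LN 17 passed as lower and 1 as higher in CD103+ DCs (7.73% and 5.22% of all genes). Between organs 22 passed as lower and 4 as higher in LN DC1 (21.8% and 23.8% of all genes), and 22 as lower and 6 as higher in LN DC2 (13.8% and 19.3%). In monocytes 22 passed as higher and 3 as lower than in splenic CD4+ DCs (23.8% and 24.2% of all genes), and 28 as higher and 4 as lower than in splenic CD8+ DCs (20.4% and 21.7%).

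Among the adaptors and kinases, Tyrobp and Fcer1g were lower in DC1 than in DC2 of both organs and did not pass between the DC1 of the organs. Tyrobp (DAP12) averaged 399 ± 113 CPM in the DC1 and 1517 ± 384 CPM in the DC2 of the spleen (log2 fold change -1.93, SE 0.24, edgeR adjusted p = 9.37e-06), 386 ± 23.2 and 832 ± 160 CPM in those of the LN (-1.11, SE 0.24, adjusted p = 0.00354), and 1758 ± 126 in monocytes. Fcer1g measured 88.4 ± 29.8 and 364 ± 51.7 CPM in the same splenic DCs (-2.04, SE 0.23, adjusted p = 2.51e-06), 81.9 ± 1.19 and 305 ± 59 CPM in the LN (-1.9, SE 0.23, adjusted p = 1.36e-05) and 1206 ± 64.2 CPM in monocytes. Between the DC1 of the organs the differences of -0.05 ± 0.23 for Tyrobp (adjusted p = 0.887) and -0.11 ± 0.22 for Fcer1g (adjusted p = 0.717) did not pass. In DC2, Tyrobp was lower in the LN than in the spleen (-0.87, SE 0.24, edgeR adjusted p = 0.0078). Fcer1g did not pass there (-0.25, SE 0.22, edgeR adjusted p = 0.411). LN CD103+ DCs held 8447 counts of Tyrobp and 1781 of Fcer1g, against 6 or fewer of each Sirpb1 gene, Cd300e and Cd300lb. Syk was lower in DC1 of both organs, by -1.74 ± 0.21 in the spleen (adjusted p = 5.13e-06) and -1.37 ± 0.2 in the LN (adjusted p = 0.000141), and 5 of the 9 adaptors and kinases passed as lower in each of these comparisons and none as higher, where 14.4% of all genes passed as lower in the spleen and 7.73% in the LN.

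Ptpn6, which encodes SHP-1, depended on both organ and lineage, with 345 ± 86.9 CPM in the DC1 and 1238 ± 329 in the DC2 of the spleen, 441 ± 35.3 and 481 ± 28.4 in those of the LN and 1063 ± 59.6 in monocytes. It was lower in splenic CD8+ than CD4+ DCs (-1.84, SE 0.22, adjusted p = 6.37e-06), and the interaction of organ and lineage was 1.72 (SE 0.31, adjusted p = 0.0012). Of its exon length, 6.96% overlaps another gene.

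Among DCs, Cd47, the ligand of SIRP alpha, passed the threshold between organs but not between lineages. It measured 318 ± 67.3 and 332 ± 90.8 CPM in splenic DC1 and DC2 (-0.06, SE 0.21, adjusted p = 0.868), and 652 ± 68.2 and 607 ± 26.9 CPM in LN CD103+ and CD11b+ DCs (0.1, SE 0.21, adjusted p = 0.822). It was higher in the LN in DC1 (1.03, SE 0.21, adjusted p = 0.000564) and DC2 (0.87, SE 0.21, adjusted p = 0.00357), opposite to Sirpa. In monocytes Cd47 stood at 617 ± 17.9 CPM, higher than in splenic CD4+ DCs (0.89, SE 0.21, edgeR adjusted p = 0.00199) and CD8+ DCs (0.95, SE 0.21, adjusted p = 0.00122). Another gene overlaps 34.4% of its exon length, and such reads were counted for both. Thbs1, which encodes the CD47 ligand thrombospondin-1, measured 636 ± 103 CPM in monocytes, 0.438 ± 0.759 in splenic DC1 and 1.19 ± 1.3 in splenic DC2 (log2 fold changes 10.42, SE 0.89, and 8.93, SE 0.81, adjusted p = 2.27e-08 and 6.18e-08). All 11 counts in splenic CD8+ DCs lay in replicate 1, without which monocytes were at least 3420-fold higher (9.81 on the log2 scale without replicate 3), and against CD4+ DCs the difference was 10.25 without splenic CD4+ replicate 1. In LN DCs Thbs1 reached 15.2 ± 6.91 CPM in CD103+ and 13.9 ± 13.1 in CD11b+ DCs, higher than in the spleen by 5.03 ± 0.87 (adjusted p = 0.000113) and 3.46 ± 0.76 (adjusted p = 0.00174). Without splenic CD8+ replicate 1 the DC1 difference was at least 82-fold, without replicate 3 it was 4.42, and the DC2 difference was 4.78 without splenic CD4+ replicate 1 and 2.26 without LN CD11b+ replicate 1.

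**Figure D4:**
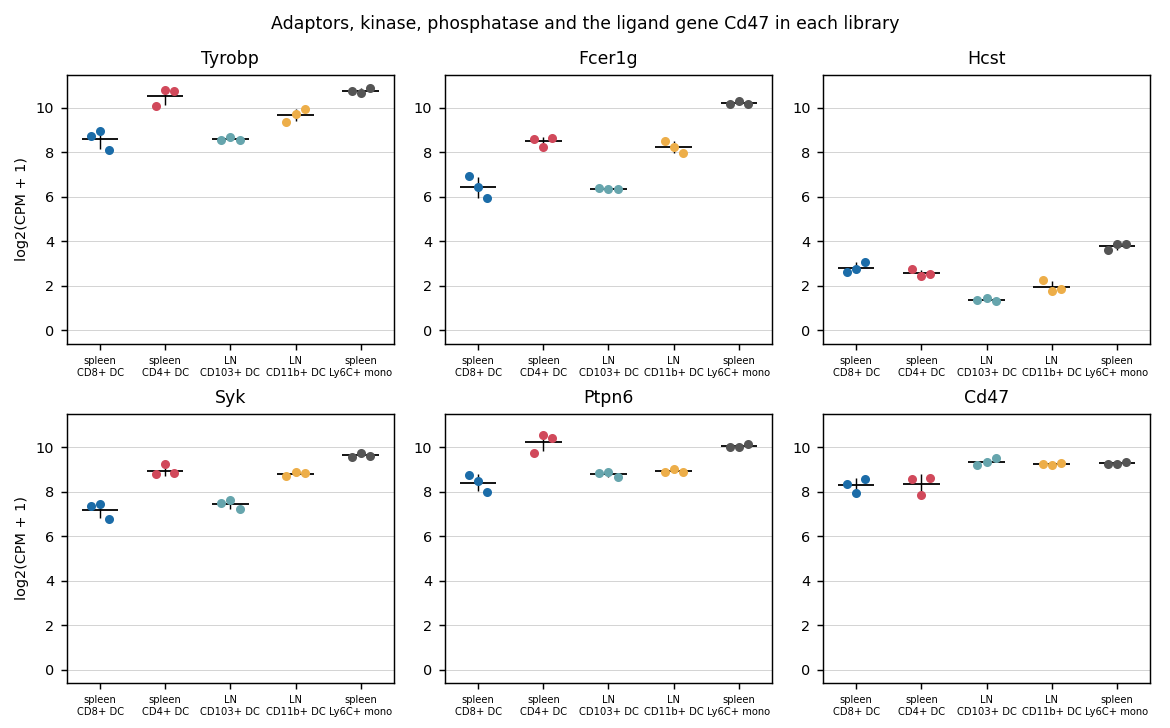
Level of 3 adaptor genes, the kinase Syk, the phosphatase Ptpn6 and the ligand Cd47 in each library, as log2(CPM + 1); points are libraries, lines means ± SD (n = 3). Tyrobp and Fcer1g are lower in the DC1 than in the DC2 of each organ, and Cd47 lies at 652 and 607 CPM in the LN DCs against 318 and 332 CPM in the splenic DCs.

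Other genes of the SIRP and CD300 families were tested where they passed the filter. Gm9733 and Gm5150, which flank the Sirpb1 genes on chromosome 3, were lower in DC1 than DC2 in the spleen (-5.18, SE 0.56, adjusted p = 1.46e-06, and -4.52, SE 0.49, adjusted p = 1.65e-06) and in the LN (-6.9, SE 0.89, adjusted p = 2.97e-05, and -5.46, SE 0.61, adjusted p = 5.92e-06). Gm9733 had 396, 396 and 285 CPM in monocytes, 204, 269 and 122 CPM in splenic CD4+ DCs and 3 counts in LN CD103+ DCs, all in replicate 1, without which LN CD11b+ DCs were at least 88.9-fold higher (-6.25 without replicate 2). In the spleen its difference was -6.39 without CD8+ replicate 1. All 11 LN CD103+ counts of Gm5150 lay in replicate 2, without which LN CD11b+ DCs were at least 98.2-fold higher. Gm9733 was also lower in LN CD11b+ than splenic CD4+ DCs (-3.42, SE 0.5, adjusted p = 3.28e-05).

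Cd300c2 measured 239 ± 51.7 CPM in splenic CD4+ DCs, 202 ± 22.3 in monocytes, 63.8 ± 25.9 in LN DC2, 62.3 ± 18 in splenic DC1 and 3.39 ± 3.03 in LN DC1, with an organ difference of -4.21 in DC1 (SE 0.46, adjusted p = 5.45e-07), or -5.26 without LN CD103+ replicate 1. Cd300lg was highest in monocytes, at 79.5 ± 15.2 CPM against 8.79 ± 2.46 in splenic CD4+ DCs (3.18, SE 0.33, adjusted p = 2.97e-07). Cd300c alone among these 5 genes was higher in splenic CD8+ than CD4+ DCs, at 11.1, 6.48 and 4.24 CPM against 1.93, 1.19 and 0.333 CPM (2.61, SE 0.78, adjusted p = 0.0178), a call that was lost without splenic CD8+ replicate 1 or splenic CD4+ replicate 2 or 3 (2.17, 2.62 and 2.19) and stood at 3.23 without splenic CD4+ replicate 1. Cd300ld2, Cd300ld3, Cd300ld4 and Cd300ld5 did not pass the filter, with at most 0.59 CPM in any library, and 46.3% to 100% of their 30-base runs occur in another gene.

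Among paired receptors of other families, Clec4a2, an inhibitory C-type lectin receptor, was lower in LN CD103+ than CD11b+ DCs, with 0.212 ± 0.256 against 34.5 ± 5.64 CPM (-7.41, SE 0.54, adjusted p = 7.09e-08; -6.74 and -8.74 without LN CD103+ replicate 2 and 3). Cd200r1, the receptor of CD200, was lower in LN CD103+ than splenic CD8+ DCs, at 1.81 ± 1.19 against 17.6 ± 3.13 CPM (-3.29, SE 0.41, adjusted p = 3.21e-06; -3.93 without LN CD103+ replicate 1). Treml4 was lower in LN CD11b+ than splenic CD4+ DCs, at 23.3 ± 3.73 against 113 ± 40.4 CPM (-2.28, SE 0.27, adjusted p = 3.46e-06). Trem3 was lower in splenic CD8+ than CD4+ DCs, at 0.449 ± 0.295 against 11.6 ± 7.73 CPM (-4.63, SE 0.65, adjusted p = 5.52e-05; -3.94 without splenic CD4+ replicate 2).

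The activating TREM receptors Trem1 and Trem2 were higher in monocytes than in splenic DCs. Trem2, which signals through DAP12, had 73.8, 75.8 and 76.8 CPM in monocytes and no count in the 6 splenic DC libraries, at least 494-fold and 617-fold higher than in CD4+ and CD8+ DCs (adjusted p = 8.17e-09 and 4.41e-09), or 299-fold without splenic CD4+ replicate 1 and 406-fold and 397-fold without splenic CD8+ replicate 1 and 3. Trem1, which amplifies inflammatory signals through the same adaptor, measured 34.6, 42.3 and 50.9 CPM in monocytes, 2.06, 3.07 and 1.5 CPM in splenic CD4+ DCs (4.27, SE 0.51, adjusted p = 3.68e-06) and 6 counts in splenic CD8+ DCs, all in replicate 3 (7.36, SE 0.65, adjusted p = 9.13e-08), without which monocytes were at least 224-fold higher.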

How the data were processed

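Counts were made and deposited by the authors, who, per the labels and methods, discarded Ion Torrent reads under 30 nt, aligned the rest to mm10 (STAR 2.4.0j) and assigned unique alignments to genes of Ensembl 75 (featureCounts, Subread 1.5.2). Strand was not used, and where genes overlapped each received the read. The TPM values were deposited by the authors and follow from these counts and the exon lengths. The columns were matched to samples by title. Levels in CPM were scaled by TMM factors (0.883 to 1.1). The raw counts were fitted in R 4.3.3 with edgeR 4.0.16 (quasi-likelihood test, TMM, 1 mean per subtype, 10 residual degrees of freedom) over the 14456 genes above 1 CPM in at least 3 libraries, with Benjamini-Hochberg adjustment over all of them and a threshold of 0.05. In all, 6 pairwise comparisons and 1 interaction were tested. With groups of 3, exact 2-sided permutation p values have a minimum of 0.1. Standard errors were derived from the fold change and its test statistic, log2 CPM used a prior count of 2, and floors were 3 counts over a group. Fold changes used the default prior count of the edgeR fit.

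The labels do not say that pools were independent of each other beyond being separate samples, so p values measure the spread between these libraries. No libraries were duplicates: within subtypes the chi-square per gene was 4.96 to 50.67. The members and gene lists were chosen with earlier results of these data known. The text names all members, the other SIRP and CD300 genes, the 3 partner genes with the largest fold change in each comparison among those past the threshold with at least 10 CPM and no overlap, and for each member the genes of most similar profile; Tyrobp, Fcer1g, Syk, Ptpn6 and Cd47 were named in addition, after their values had been seen, and the markers are those of the lists. Of 50 partner genes, 47 were matched by symbol. Sequences are from RefSeq (GRCm38.p6) and shared 30- and 100-base runs from GENCODE vM21 transcripts. Deviations of same-numbered libraries from their subtype means correlated at 0.162 to 0.375 between the splenic DCs and 0.179 to 0.259 between the LN DCs. For the DC2 of the organs the values were 0.197 to 0.266. These 3 comparisons met the criterion of more than 0.1 in every pair. The DC1 of the organs (0.037 to 0.086) and monocytes against splenic DCs (-0.031 to 0.038) did not. LN CD103+ against splenic CD4+ DCs, a pair of subtypes not tested here, also met it (0.117 to 0.146). Correlations between libraries of different number were not computed, so these values do not show that the numbers pair libraries. The labels give no pairing. Alternatives were RLE size factors, DESeq2 1.42.0, no filter (23169 genes), filterByExpr (13888 genes), a minimum fold change, limma 3.58.1 on log2(TPM + 1), fits of fewer subtypes, a replicate block, leaving out each library, and summing the Sirpb1 genes. The fit was tested on simulated data.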

Additional observations from a re-analysis of the deposited data

Results flagged for a closer look

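For 4 genes related to the members, the organ difference in DC1 differed from that in DC2 by the interaction test of the edgeR fit. The organ difference in DC1 minus that in DC2 was -2.31 for Cd300c2 (SE 0.58, adjusted p = 0.0132), -3.55 for Cd300lg (SE 0.95, adjusted p = 0.0197), -3.2 for Clec4a2 (SE 0.74, adjusted p = 0.00814) and -1.72 for Cd200r1 (SE 0.55, adjusted p = 0.0491). Each had its lowest mean in LN CD103+ DCs. For Cd300c2 it was -3.36 without LN CD103+ replicate 1. For Cd300lg, with 1 count in LN CD103+ DCs, it was lost in the limma fit on log2(TPM + 1) (-0.08, adjusted p = 0.928) and without LN CD103+ replicate 1 or 3 or LN CD11b+ replicate 1. Without LN CD103+ replicate 2, which held that count, the fitted value for Cd300lg was -5.41, which depends on the prior count and is no bound. For Clec4a2 it was lost in the limma fit (-0.63, adjusted p = 0.381) and was -2.54 and -4.53 without LN CD103+ replicate 2 and 3. For Cd200r1 it was lost with RLE size factors (-1.67), in the fit of fewer subtypes and with any 1 library left out other than splenic CD4+ replicate 2 or LN CD103+ replicate 1, and was -2.37 without the latter.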

How the results depend on the processing

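With RLE size factors, DESeq2, other filters, a minimum log2 fold change of 1, limma on log2(TPM + 1), fits of fewer subtypes or any 1 library left out, each count of members and of partner genes past the threshold stayed within 1.5 times the value reported. Summing the Sirpb1 genes left 3 members past the threshold in monocytes against CD4+ DCs in place of 5, by construction with fewer genes, and the difference of the sum was 0.05 where that of Sirpb1a was -1.4. With the replicate block, the members past the threshold were 8 in the spleen, 9 in the LN, 9 and 8 between organs in DC1 and DC2, and 5 and 8 for monocytes, the same as without it, and it moved no count of partner genes by over 1.5 times. For single genes it added Gm9733 (0.92) and dropped Cd300c (-2.52) in monocytes against CD4+ DCs. Same-numbered libraries correlated above 0.1 in every pair within the spleen DCs, within the LN and between the DC2 of the organs. In these comparisons the block changed no call of a member or of another SIRP or CD300 gene. It also changed none of Thbs1, Trem1, Trem2, Trem3, Treml4, Clec4a2 and Cd200r1. Single values of Tyrobp, Fcer1g, Syk, Ptpn6 and Cd47 were not computed with the block. Under DESeq2, Sirpb1c in monocytes against CD4+ DCs (1.16) and Cd300lf in monocytes against CD8+ DCs (1.35) did not pass. Depth limits the LN CD103+ values, where 5 of the 9 members had 6 counts or fewer.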
